A study of Mus musculus with 12 samples.

Results

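The genes described here are 10 genes of WNT signaling in mouse mesenchymal stromal cells (MSCs): the ligand Wnt5a, the frizzled receptors Fzd1, Fzd2 and Fzd7, the secreted proteins Sfrp1 and Dkk3, the feedback gene Axin2, and the nuclear factors Lef1, Tcf7 and Tcf7l2. They were chosen by symbol, with earlier results of these data known, from the 55487 Ensembl genes of the count table, and all 10 were found there. Of these, 8 were among the 11314 protein-coding genes that passed the filter on low counts, and Axin2 and Tcf7 were not. The 8 tested genes had at least 39 counts in every sample, so none passed the filter through a single group. RNA was sequenced in 3 groups of 4 samples of wild-type (WT) C57BL/6 bone marrow MSCs, which are primary cells grown in serum-containing medium to high confluency. The control MSCs (labelled Negative) were untreated. The A1-treated MSCs received 50 μM A1, and the A1 + OVA-treated MSCs (labelled A1-OVA) received 50 μM A1 together with 1 mg/mL ovalbumin, each for 6 h. A1 is a variant of Accum, a bile acid joined to a nuclear localization signal peptide, and ovalbumin (OVA) is a chicken egg white protein used as a model antigen. No group received OVA without A1, so that an effect of OVA can be seen only on top of A1. The labels also mention insulin for the A1 + OVA medium, in wording that does not show whether it was added. If it was, its effect cannot be told apart from that of OVA. According to the study's methods the MSCs were flushed from femurs of female mice and expanded over passages before use. The labels do not say whether the 4 samples of a group came from separate animals or cultures, so the p-values measure the spread between these samples, which may be technical.

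WNT proteins are secreted lipid-modified ligands that bind frizzled receptors on neighbouring cells. With the co-receptors LRP5 and LRP6, a bound frizzled receptor blocks the complex of AXIN, APC and GSK3 that otherwise marks β-catenin for destruction, and β-catenin then enters the nucleus and acts with the TCF/LEF factors on target genes. Other WNT proteins, of which WNT5A is the best known, act mainly through β-catenin-independent branches that control cell shape and movement. In bone marrow stroma, WNT signaling is known for favouring osteoblast over adipocyte fate and for shaping the support that stromal cells give to blood-forming cells.

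Each sample held between 13702348 and 16881995 counts, and protein-coding genes took 97.7% to 98.5% of them. Levels are given as CPM, counts scaled to the same TMM-normalised library size. Of 12 MSC markers, 10 were tested, and Cd44, Itgb1, Pdgfra, Pdgfrb, Vcam1 and Cxcl12 were well expressed. Thy1 (0 to 17 counts) and Nt5e (7 to 14 counts), which encode the surface proteins CD90 and CD73, were close to absent as RNA in every group. Alcam (2 to 12 counts) and Lepr (6 to 16 counts) of the same list were similarly low. The study stained its MSCs for the proteins CD44, CD45, CD73 and CD90 by flow cytometry, and RNA counts do not measure protein. Ptprc, which encodes the leukocyte antigen CD45, had at most 4 counts in any sample and Cd3e had 0, while of the macrophage markers Cd14 had 120 to 173 counts (7.59 CPM in control, 11.3 with A1 and 9.24 with A1 + OVA) and Cd68 had 16 to 31. The other myeloid markers of that list were low: Itgam had at most 1 count, Adgre1 and Ly6g 2, Lyz2 7 and Csf1r 14. The summed level of 12 MSC markers ranged from 6274 to 6641 CPM in control, from 4799 to 5023 CPM in A1-treated and from 4715 to 4948 CPM in A1 + OVA-treated MSCs. Its markers went both ways: Cxcl12, the largest part in control, was at 3910, 1514 and 1692 CPM, while Itgb1 was at 1451, 2225 and 2138 CPM and Cd44 had 2726 to 2996, 5797 to 6476 and 5486 to 6675 counts. That of 5 adipocyte markers, most of it Lpl, was 1915 to 2163, 761 to 782 and 827 to 906 CPM. That of 6 osteoblast markers, most of it Spp1, was 1258 to 1351, 3142 to 3472 and 2086 to 2500 CPM. Markers within both lists differed too. Fabp4 was at 63.2, 64.0 and 71.3 CPM and Pparg at 125, 124 and 117 CPM. Adipoq and Plin1, with at most 45 and 11 counts, were lower on average in both treated groups, as Lpl was. Runx2 (125, 97.8 and 82.6 CPM) and Alpl (15.3, 9.12 and 9.49 CPM) were lower where Spp1 was higher. The part of these changes in the WNT results was not tested. A pair of libraries stood apart. Control replicate 2 held 58 counts of 10 T cell lineage genes, against 1 to 12 in the other 11 samples. That list was made after the data were seen and includes Thy1, also an MSC marker here, with up to 17 counts in control. A1 replicate 2 held 60 genes with at least 12 counts and more than 3 times the count of any other sample. Of these genes, 1 was protein-coding and 0 were tested.

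Promoter sequences of the members were searched for CTTTGA, a form of the core motif of the TCF/LEF factors. Other forms of the motif were not searched, so a window without this core may still hold them. In the RefSeq promoter table (GRCm38.p6), 6 of the 10 members had a window, 250 bases before to 50 bases after a transcription start, with 11 windows between them: Fzd1, Fzd7, Axin2, Lef1, Tcf7 and Tcf7l2. The core CTTTGA, or TCAAAG on the other strand, was present in 2 of these 11 windows, and in 16% of all 32851 windows of that length. The Fzd1 window held 1 copy, 242 bases before the start, and the fourth of the Lef1 windows, at a start within the gene, held 2 copies, 180 and 120 bases before the start. At least 2 copies were found in 1.73% of all windows. A match is a match of letters and does not show binding. The 250 bases before both starts are given 5′ to 3′ on the strand of the gene, with the core in capitals.
Fzd1, chr5:4758217-4758466, minus strand: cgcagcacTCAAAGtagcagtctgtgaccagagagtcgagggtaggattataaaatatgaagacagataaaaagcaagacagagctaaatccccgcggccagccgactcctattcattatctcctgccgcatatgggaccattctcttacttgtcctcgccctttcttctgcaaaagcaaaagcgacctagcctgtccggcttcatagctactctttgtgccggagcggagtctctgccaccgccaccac
Lef1, chr3:131156044-131156293, plus strand: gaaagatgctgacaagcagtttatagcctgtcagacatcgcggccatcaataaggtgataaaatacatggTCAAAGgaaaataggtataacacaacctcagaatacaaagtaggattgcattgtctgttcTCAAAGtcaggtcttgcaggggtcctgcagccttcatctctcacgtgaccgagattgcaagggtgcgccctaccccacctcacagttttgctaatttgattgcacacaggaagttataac

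Treatment with A1 changed most of the tested WNT genes, and in different directions. Against control, 7 of the 8 tested members were called in A1-treated MSCs at an adjusted p under 0.05: Wnt5a and Lef1 rose, and Fzd1, Fzd2, Sfrp1, Dkk3 and Tcf7l2 fell. Among all tested genes 62.7% were called in that comparison (31.7% higher and 31.1% lower), so that a high share of calls was not particular to WNT genes. In A1 + OVA-treated MSCs 6 of 8 were called, with Lef1 higher and the same 5 genes lower, against 57.6% of all tested genes (29.7% higher and 27.9% lower). Directly between both treated groups 1 of 8 was called, Wnt5a, against 12.9% of all tested genes (6.05% higher and 6.81% lower). The median log2 fold change of the 8 members was -0.55 with A1 and -0.56 with A1 + OVA, beside -0.0017 and 0.0036 over all tested genes. Both treatments were compared with the same 4 control samples, so that their values are not independent of each other. Unless another fit is named, adjusted p-values are from edgeR's quasi-likelihood test with Benjamini-Hochberg adjustment over the 11314 tested genes. Where SE is given with a log2 fold change, it is its standard error. In bulk RNA, fewer cells that express a gene and less RNA per cell cannot be told apart.

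**Figure D1:**
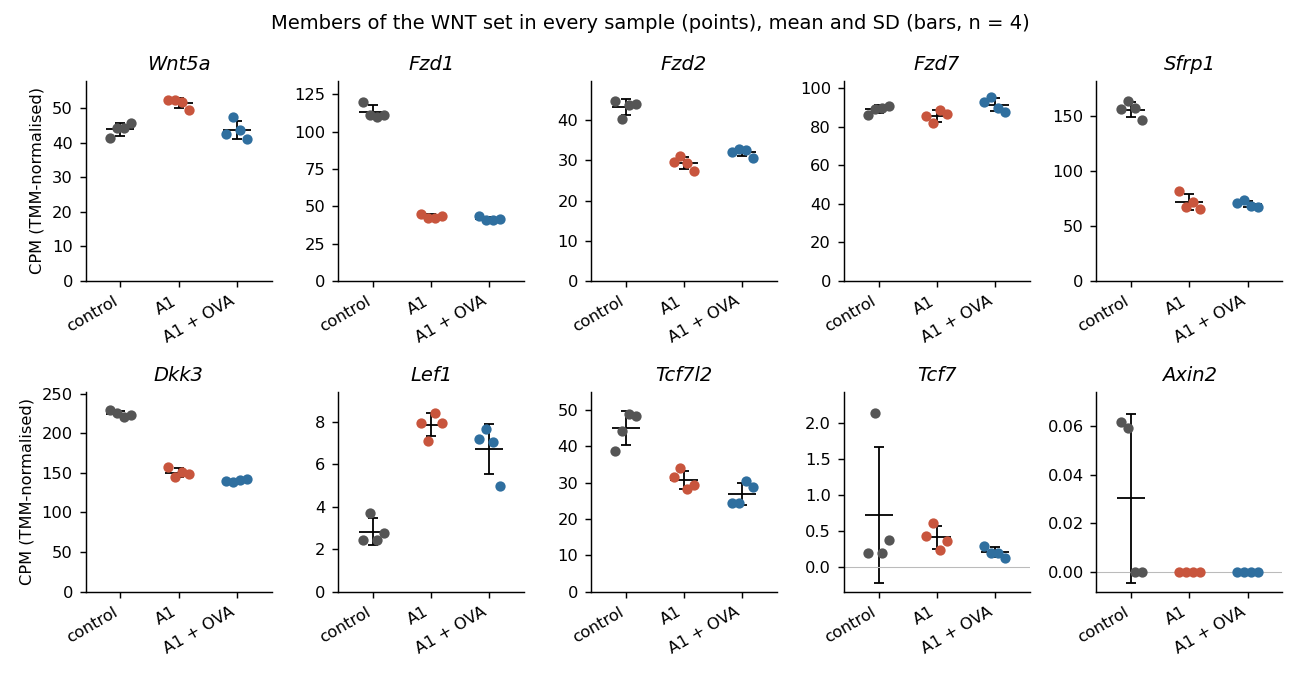
Level of each of the 10 members in CPM (y axis, a scale for each gene) in the 12 samples (points) by group (x axis), with the mean and SD of 4 samples (bars). Fzd1, Fzd2, Sfrp1, Dkk3 and Tcf7l2 are lower and Lef1 is higher in all 8 treated samples than in all 4 control samples, and in the panel of Tcf7 a single control sample at 2.13 CPM lies above the rest.

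Wnt5a, the main ligand of the β-catenin-independent branches, rose slightly with A1 and not with A1 + OVA. The gene (ENSMUSG00000021994) lies at chr14:28504750-28527448 on the plus strand of GRCm38. Control samples had 41.3, 44.3, 44.1 and 45.7 CPM, A1-treated samples 52.4, 52.3, 51.8 and 49.3 CPM, and A1 + OVA-treated samples 42.5, 47.4, 43.6 and 41.0 CPM. All A1-treated samples thus lay above all others, and the remaining groups overlapped. The log2 fold change was 0.23 with A1 (SE 0.05, 1.17-fold, adjusted p = 0.000592) and -0.01 with A1 + OVA (SE 0.05, adjusted p = 0.909). The difference between both treatments was itself called, at -0.24 (SE 0.05, adjusted p = 0.00429), and Wnt5a was the only tested member called in that comparison.

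Of the other 18 WNT ligands, 2 were tested. Wnt10b, a ligand of the β-catenin branch, fell with A1 from 20.3 ± 1.87 to 13.8 ± 0.525 CPM (SD, n = 4; log2 fold change -0.55, SE 0.14, adjusted p = 0.00140). Its A1 + OVA-treated samples were spread over 10.4, 12.5, 19.7 and 18.8 CPM, and its log2 fold change of -0.39 there (adjusted p = 0.0146) was no longer called without A1 + OVA replicate 1 (adjusted p = 0.0566), without A1 + OVA replicate 2 (0.0637), without control replicate 4 (0.0565) or by DESeq2 (0.0530). Wnt9a was near the limit of detection, with 3 to 9 counts in control and 10 to 15 counts in A1 + OVA-treated samples (log2 fold change 1.29, SE 0.39, adjusted p = 0.00747), and its value of 0.45 with A1 was not called (adjusted p = 0.406). It passed the filter on low counts mainly through the A1 + OVA-treated samples, where it was highest, so that its call is not independent of the filter. The other 16 ligands had at most 13 counts in any sample. The highest of them was Wnt4, which was not tested. It had 6 to 13 counts in control, 1 to 2 with A1 and 1 to 4 with A1 + OVA, so that treated and control samples did not overlap. Per length, Wnt5a held 46.7% ± 1.49 of the summed level of 19 ligands in control, 59.9% ± 0.752 with A1 and 53.2% ± 7.50 with A1 + OVA (SD, n = 4). Wnt10b held 49.5% ± 1.74 in control, where its range overlapped that of Wnt5a, and 37.1% ± 0.946 and 42.0% ± 8.11 after treatment.

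The frizzled receptors did not respond as 1 family. Fzd1 showed the largest fall among the tested members, Fzd2 fell less, and Fzd7 stayed within the spread of the samples. Fzd1 (ENSMUSG00000044674, chr5:4753839-4758035, minus strand) had 120, 111, 110 and 111 CPM in control, 45.1, 42.4, 42.0 and 43.6 CPM with A1, and 43.3, 40.5, 40.6 and 41.2 CPM with A1 + OVA. Treated and control samples were far apart, and both treated groups overlapped. The log2 fold change was -1.39 with A1 (SE 0.04, 2.62-fold lower, adjusted p = 1.34e-16) and -1.45 with A1 + OVA (SE 0.04, 2.74-fold lower, adjusted p = 6.93e-17).

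Fzd2 (ENSMUSG00000050288, chr11:102604396-102608058, plus strand) had 44.7, 40.3, 43.7 and 44.1 CPM in control, 29.6, 31.0, 29.3 and 27.3 CPM with A1, and 32, 32.8, 32.5 and 30.7 CPM with A1 + OVA. All treated samples lay below all control samples. The log2 fold change was -0.56 (SE 0.05, adjusted p = 1.07e-08) and -0.43 (SE 0.05, adjusted p = 3.95e-07). Fzd7 (ENSMUSG00000041075, chr1:59482424-59486955, plus strand) had 86.1, 89.5, 90.0 and 90.7 CPM in control, 85.5, 81.8, 88.7 and 86.4 CPM with A1, and 93.0, 95.4, 89.7 and 87.8 CPM with A1 + OVA, and the groups overlapped. Its log2 fold change was -0.06 with A1 (95% interval -0.14 to 0.03, adjusted p = 0.222) and 0.04 with A1 + OVA (95% interval -0.05 to 0.12, adjusted p = 0.436), so that a change of the size seen for Fzd2 lay outside both intervals.

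The receptor make-up shifted with treatment. The summed level of the 10 frizzled genes, in CPM per kilobase of exon, was 71.9 ± 1.13 in control, 48.1 ± 0.740 with A1 and 50.0 ± 1.33 with A1 + OVA (SD, n = 4). Fzd1 was the largest part in control, at 37.5% ± 1.06, and held 21.4% ± 0.578 and 19.7% ± 0.610 after treatment. Fzd7 held 27.4% ± 1.00 in control and 39.2% ± 0.891 and 40.4% ± 0.608 after treatment, the largest part in both treated groups, while Fzd2 held between 15.4% and 18% in every sample. These shares add to a whole, and the share of Fzd7 increased without a called change in its own level.

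**Figure D2:**
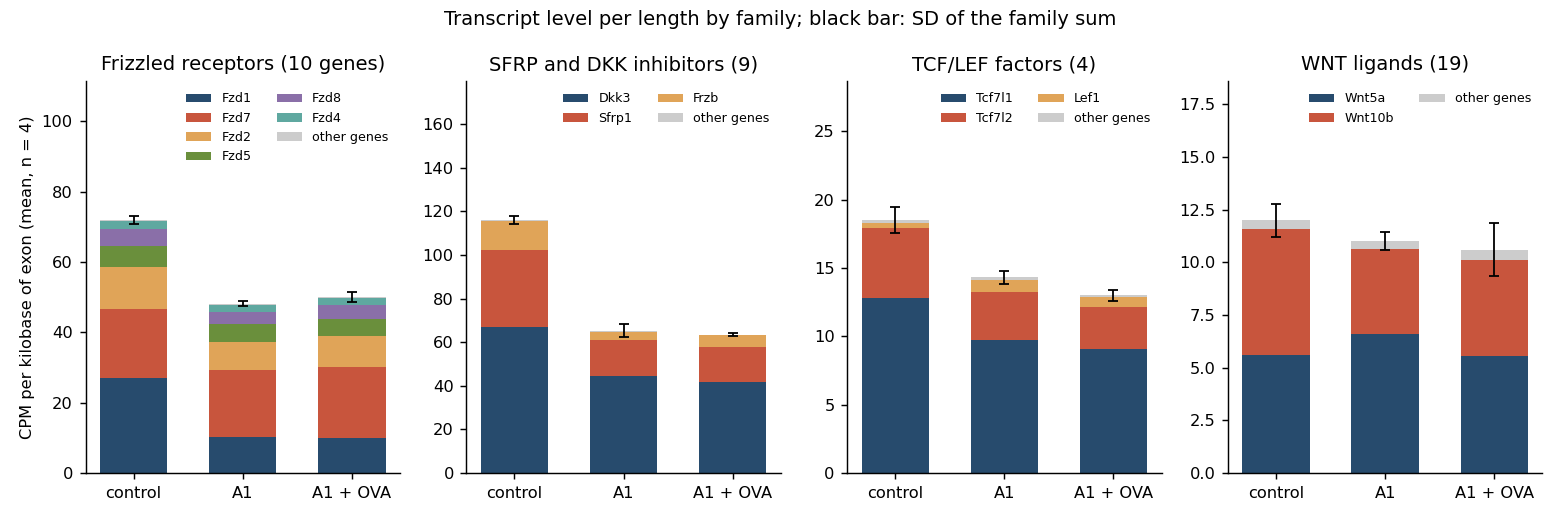
Summed transcript level per length (y axis, CPM per kilobase of exon, mean of 4 samples) of 4 WNT gene families by group (x axis), stacked by gene, with the SD of the sum (black bar). The frizzled sum goes from 71.9 in control to 48.1 with A1, mostly through Fzd1, and the sum of SFRP and DKK inhibitors goes from 116 to 65.3.

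Most of the other tested receptors and co-receptors were called lower. Of 9, 2 rose (Fzd3 and Fzd6) and 5 fell with A1, and 2 rose (Lrp5 and Fzd6) and 5 fell with A1 + OVA. With each treatment 77.8% were called, beside 62.7% of all tested genes with A1 and 57.6% with A1 + OVA. The calls of the genes that rose were all lost by DESeq2, as given below. Lrp6, the co-receptor of the β-catenin branch, fell from 312 ± 14.1 CPM in control to 201 ± 9.62 with A1 and 207 ± 8.63 with A1 + OVA (log2 fold change -0.63 and -0.59, SE 0.04 for both, adjusted p = 3.89e-11 and 1.38e-10). Its paralogue Lrp5 had 19.7 ± 2.28 CPM in control, between 19.4 and 20.3 CPM with A1, and 22.5 ± 1.40 CPM with A1 + OVA. Lrp5 was not called with A1 (log2 fold change 0.02, adjusted p = 0.814), and its log2 fold change of 0.19 with A1 + OVA (adjusted p = 0.0320) was not called without control replicate 1 (0.0517) or 2 (0.141) or without A1 + OVA replicate 1 (0.0962) or 3 (0.0654), nor by DESeq2 (0.0529), under upper-quartile scaling (0.0563) or with only the groups compared (0.0591). Fzd8 fell too, with log2 fold changes of -0.50 and -0.40 (adjusted p = 1.49e-06 and 2.65e-05). Fzd5 had a log2 fold change of -0.24 with each treatment (adjusted p = 0.000927 and 0.000875). Ptk7, a receptor of the planar polarity branch, had -0.37 with each (adjusted p = 5.44e-07 and 4.57e-07), while Ryk, an atypical WNT receptor, had -0.03 and -0.09 and was not called (adjusted p = 0.624 and 0.0736). With A1 + OVA it was called under upper-quartile scaling (0.0242) and without A1 replicate 3 (0.0473) or A1 + OVA replicate 1 (0.0168) or 2 (0.0466).

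Smaller or less stable calls were made for Fzd3, Fzd4 and Fzd6. Fzd4 had a log2 fold change of -0.22 with A1 (adjusted p = 0.0109) and -0.19 with A1 + OVA (adjusted p = 0.0245), the latter not called without A1 + OVA replicate 3 (0.0829) or 4 (0.0683) or without control replicate 2 (0.0642), nor by DESeq2 (0.0590). Fzd3, at 1.90 CPM in control, had 0.45 with A1 (adjusted p = 0.0396), which was lost without A1 replicate 1 (0.0537), 2 (0.101) or 3 (0.0780) and without control replicate 1 (0.103) or 2 (0.0836), by DESeq2 (0.0859), under upper-quartile scaling (0.0532), without the filter (0.0546), with all genes of the table (0.0510) and with the replicate block (0.0521), and 0.01 with A1 + OVA (adjusted p = 0.960). Fzd6 had 2 to 8 counts in control and 4 to 14 in treated samples, and it passed the filter through treated samples, where it was higher. Its log2 fold changes of 1.02 and 1.04 (adjusted p = 0.0390 and 0.0338) were lost by DESeq2 (adjusted p = 0.0693 and 0.0689) and without control replicate 2 (0.127 and 0.116) and, with A1, also without control replicate 3 (0.0867) or A1 replicate 1 (0.0903), 2 (0.117) or 3 (0.0784) and, with A1 + OVA, without control replicate 3 (0.0795) or A1 + OVA replicate 2 (0.124) or 4 (0.0664).

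The secreted inhibitors Sfrp1 and Dkk3 both fell. Sfrp1 encodes a secreted frizzled-related protein that binds WNT ligands outside the cell. The gene (ENSMUSG00000031548, chr8:23411502-23449632, plus strand) had 156, 163, 157 and 146 CPM in control, 81.6, 67.4, 71.5 and 64.8 CPM with A1, and 70.7, 73.6, 68.2 and 67.0 CPM with A1 + OVA. All treated samples lay below all control samples, and both treated groups overlapped. Its log2 fold change was -1.13 with A1 (SE 0.06, 2.18-fold lower, adjusted p = 1.64e-13) and -1.16 with A1 + OVA (SE 0.06, 2.23-fold lower, adjusted p = 1.05e-13).

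Dkk3 encodes a secreted protein of the Dickkopf family, whose effect on WNT signaling differs between cell types. It had the highest level per length of the 10 genes, at 66.8 ± 1.15 CPM per kilobase in control. The gene (ENSMUSG00000030772, chr7:112116017-112159057, minus strand) had 229, 225, 220 and 223 CPM in control, 157, 144, 151 and 148 CPM with A1, and 139, 138, 141 and 142 CPM with A1 + OVA, so that no group overlapped another. Its log2 fold change was -0.58 (SE 0.03, adjusted p = 4.11e-12) with A1 and -0.68 (SE 0.03, adjusted p = 3.41e-13) with A1 + OVA. The step between both treatments was -0.10 (95% interval -0.17 to -0.03) and did not pass the adjustment (adjusted p = 0.0679).

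Among the 5 other tested inhibitors, 1 rose (Kremen1) and 2 fell (Frzb and Trabd2b) with each treatment. These 60.0% called were near the share of all tested genes, 62.7% with A1 and 57.6% with A1 + OVA. Frzb, a further secreted frizzled-related protein, fell most of all tested inhibitors with A1, from 42.6, 42.7, 44.9 and 43.2 CPM in control to 11.9, 12.7, 12.5 and 13.1 CPM (log2 fold change -1.79, SE 0.06, adjusted p = 3.28e-16). With A1 + OVA it had 16.6, 19.1, 17.8 and 18.7 CPM, between the other groups without overlap (log2 fold change -1.26, adjusted p = 3.14e-14). The classical LRP antagonist Dkk1 had 0 counts in every sample, and Sfrp2 had at most 10. The summed level of the 9 SFRP and DKK genes went from 116 ± 1.95 CPM per kilobase in control to 65.3 ± 2.93 with A1 and 63.5 ± 0.555 with A1 + OVA (SD, n = 4), nearly all of it Dkk3, Sfrp1 and Frzb.

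**Figure D3:**
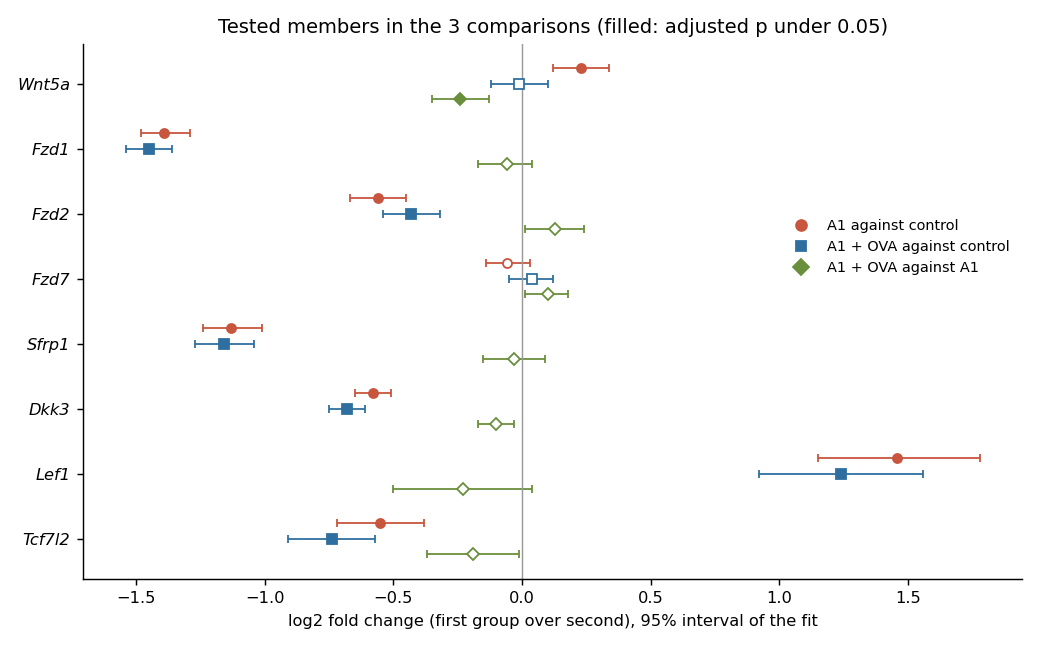
Log2 fold change (x axis) of the 8 tested members (y axis) in 3 comparisons, with the 95% interval of the fit. Filled symbols passed an adjusted p under 0.05; Fzd1, Sfrp1 and Lef1 are the members beyond 1 on the log2 scale in both comparisons with control, and in the direct comparison of both treatments only Wnt5a is filled.

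R-spondins and their LGR receptors raise frizzled levels at the cell surface, and the ligase ZNRF3, on which they act, removes frizzled receptors from it. Of 6 tested genes of this receptor turnover group, all were called with each treatment, beside 62.7% and 57.6% of all tested genes: Lgr6 and Znrf3 rose, and Rspo2, Rspo3, Lgr4 and Lgr5 fell. Rspo2 was abundant in control, at 502 ± 22.1 CPM, and fell to 253 ± 11.9 CPM with A1 and 210 ± 11.7 CPM with A1 + OVA (log2 fold change -0.99 and -1.26, SE 0.05 for both, adjusted p = 4.68e-14 and 1.12e-15). Rspo3 fell from 18.7 ± 1.82 to 6.61 ± 1.39 and 8.30 ± 0.755 CPM (log2 fold change -1.50 and -1.17, adjusted p = 2.35e-10 and 5.19e-09). The receptors did not move together. Lgr6 rose from 31.7 ± 2.39 to 83.8 ± 6.00 CPM with A1 and 66.9 ± 2.42 CPM with A1 + OVA (log2 fold change 1.40 and 1.07, adjusted p = 1.13e-14 and 1.20e-12), and Lgr5 fell from 4.20 ± 0.637 to 2.91 ± 0.434 and 1.90 ± 0.618 CPM (log2 fold change -0.53 and -1.14, adjusted p = 0.0130 and 2.53e-05). The call of Lgr5 with A1 was lost without A1 replicate 1 (adjusted p = 0.0528).

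Among the TCF/LEF factors, which carry β-catenin to DNA, Lef1 rose and Tcf7l2 fell. Lef1 (ENSMUSG00000027985, chr3:131110471-131224356, plus strand), in which the internal start shown above with 2 core motifs lies, had 2.41, 3.72, 2.41 and 2.76 CPM in control, 7.95, 7.10, 8.40 and 7.92 CPM with A1, and 7.18, 7.66, 7.06 and 4.99 CPM with A1 + OVA. These values rest on 39 to 63 counts in control and 81 to 121 in treated samples, and every treated sample lay above every control sample. The counts are per gene and do not tell its transcripts apart. The log2 fold change was 1.46 with A1 (SE 0.15, 2.76-fold, adjusted p = 2.96e-08) and 1.24 with A1 + OVA (SE 0.15, 2.36-fold, adjusted p = 4.83e-07). The highest control value came from control replicate 2, and without that sample the log2 fold changes were 1.63 and 1.40.

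Tcf7l2 (ENSMUSG00000024985, chr19:55741820-55933654, plus strand) had 38.7, 44.3, 48.8 and 48.2 CPM in control, 31.5, 34.0, 28.1 and 29.3 CPM with A1, and 24.3, 24.3, 30.3 and 28.8 CPM with A1 + OVA. All treated samples lay below all control samples. Its log2 fold change was -0.55 with A1 (SE 0.08, adjusted p = 4.79e-06) and -0.74 with A1 + OVA (SE 0.08, adjusted p = 8.23e-08). Tcf7l1, the most abundant factor of this family per length, fell as well, from 50.3 CPM to 38.2 and 35.5 CPM (log2 fold change -0.40 and -0.50, adjusted p = 3.29e-07 and 1.04e-08). Lef1 therefore went from 1.74% ± 0.374 of the summed TCF/LEF level per length in control to 6.27% ± 0.625 with A1 and 5.91% ± 1.09 with A1 + OVA (SD, n = 4), while the sum itself went from 18.5 ± 0.933 to 14.3 ± 0.489 and 13.0 ± 0.403 CPM per kilobase.

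Tcf7, which encodes TCF1 and is best known in T cells, did not pass the filter on low counts. The gene (ENSMUSG00000000782, chr11:52252371-52283014, minus strand) had 3, 36, 3 and 6 counts in control, 6, 8, 3 and 5 with A1, and 4, 3, 3 and 2 with A1 + OVA. The single high value came from control replicate 2, the library with 58 counts of T cell lineage genes, of which Cd3e had 0. The groups overlapped with and without it. In a fit without the filter Tcf7 had a log2 fold change of -1.86 with A1 + OVA (SE 0.54, adjusted p = 0.00324), which was -0.33 (SE 0.62, adjusted p = 0.728) once that sample was left out. With A1 the corresponding values were -0.83 (adjusted p = 0.158) and 0.70 (adjusted p = 0.331). A change of Tcf7 was thus not detectable in these samples apart from that library.

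Most nuclear partners of the TCF/LEF factors were called lower. Of the 10 nuclear genes that are not members, Tcf7l1 included, 1 rose and 8 fell with each treatment, where 31.1% and 27.9% of all tested genes were called lower. Pygo1 and Bcl9l, cofactors that link β-catenin to chromatin, had log2 fold changes of -0.90 and -0.54 with A1 (adjusted p = 7.79e-06 and 9.05e-09) and -0.62 and -0.51 with A1 + OVA (adjusted p = 0.000317 and 2.18e-08). Of the Groucho-related corepressors, Tle1 rose (log2 fold change 0.77 with A1 and 0.45 with A1 + OVA, adjusted p = 4.30e-11 and 3.08e-07), whereas Tle3 (-0.37 and -0.57, adjusted p = 5.89e-06 and 1.14e-08) and Tle2 (-1.46 and -1.0, adjusted p = 1.45e-08 and 1.68e-06) fell. The A1 + OVA-treated samples of Tle2 were spread over 16.2, 21.5, 32.7 and 30.7 CPM.

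Axin2, the feedback gene most often used as a readout of β-catenin signaling, was not detectable. The gene (ENSMUSG00000000142, chr11:108920349-108950783, plus strand) had 1, 1, 0 and 0 counts in control and 0 counts in all 8 treated samples. A count of 3, taken as the floor, corresponds to 0.177 to 0.229 CPM in these libraries, so that both sides lie under the floor and no fold change is given. The other feedback genes of the target list were split by level. Nkd1 and Rnf43 had at most 3 counts, Notum had at most 10, and Sp5 had 0 counts in every sample. Znrf3, with 246 to 349 counts, rose from 15.9 ± 0.727 CPM in control to 19.3 ± 0.568 with A1 and 20.1 ± 1.78 with A1 + OVA (SD, n = 4; log2 fold change 0.27 and 0.33, adjusted p = 0.00230 and 0.000385). Nkd2, an inhibitor that binds Dishevelled, rose from 6.76 ± 0.866 to 9.20 ± 0.283 and 11.6 ± 0.276 CPM (0.44 and 0.78, adjusted p = 0.000405 and 1.94e-07). Apcdd1, which encodes a membrane inhibitor, had 88 to 170 counts and was not called (-0.18 and -0.13, adjusted p = 0.169 and 0.312). Except for Nkd2, these genes were named after their values were seen.

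Most tested target genes were called higher. Of 23 genes on the target list, which includes Lef1, Tcf7 and Axin2, 15 were tested, and 11 rose and 2 fell with A1 while 10 rose and 2 fell with A1 + OVA, where 31.7% and 29.7% of all tested genes were called higher. Their median log2 fold change was 0.30 and 0.33. Most of these genes also respond to other pathways. Fosl1, a subunit of the AP-1 transcription factor, rose from 43.1, 41.3, 44.1 and 45.8 CPM to 156, 170, 158 and 151 CPM with A1 (log2 fold change 1.87, SE 0.05, adjusted p = 1.33e-18) and had 1.63 with A1 + OVA (adjusted p = 1.84e-17). Ccn4, a matricellular protein also known as WISP1, rose from 67.0 ± 1.93 to 189 ± 8.64 and 198 ± 10.4 CPM (log2 fold change 1.49 and 1.56, adjusted p = 4.96e-17 and 2.84e-17), whereas its relative Ccn5 fell from 45.0 ± 4.36 to 19.7 ± 1.14 and 21.4 ± 1.43 CPM (-1.19 and -1.07, adjusted p = 4.70e-12 and 1.96e-11).

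Myc and Ccnd1 of the target list also rose with both treatments. The proto-oncogene Myc had 66.6, 62.8, 67.6 and 70.4 CPM in control and 127 to 142 CPM in all treated samples (log2 fold change 1.03 and 0.95, adjusted p = 8.55e-15 and 3.54e-14). Ccnd1, which encodes cyclin D1, rose from 225 to 323 CPM with A1 and to 292 CPM with A1 + OVA (0.52 and 0.38, adjusted p = 2.09e-11 and 5.19e-09).

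**Figure D4:**
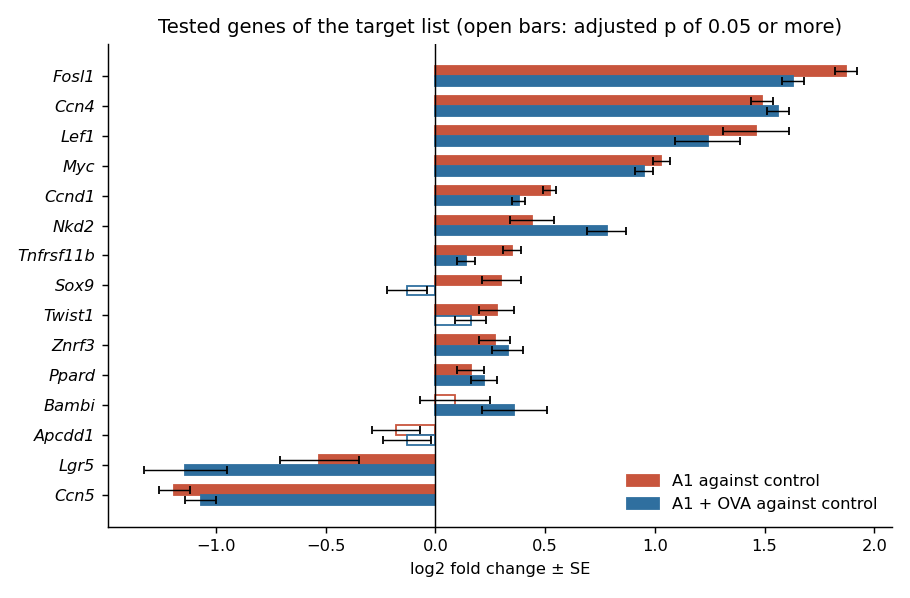
Log2 fold change over control with its SE (x axis) of the 15 tested genes of the target list (y axis) with A1 and with A1 + OVA. Fosl1, Ccn4, Lef1 and Myc reach 0.95 or more with both treatments, and Ccn5 and Lgr5 are the genes called lower.

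Over the WNT list more genes were called lower than higher, while over all tested genes the calls were split nearly evenly. Apart from the 10 members, the WNT list held 113 genes, of which 71 were tested, and 20 rose and 34 fell with A1 (76.1% called, against 62.7% of all tested genes) while 19 rose and 32 fell with A1 + OVA (71.8%, against 57.6%). Their median log2 fold change was -0.17 and -0.13. Genes of the relay and destruction complex went both ways. Of 19 tested, 4 rose and 9 fell with A1 (68.4% called) and 3 rose and 5 fell with A1 + OVA (42.1% called), and the median was -0.10 and -0.05. Ctnnb1, which encodes β-catenin and was named after its values were seen, had a log2 fold change of -0.29 with A1 and -0.21 with A1 + OVA (SE 0.03 for both, adjusted p = 1.23e-07 and 1.05e-05). Of 8 tested planar polarity genes 2 rose and 3 fell with A1 (62.5% called) and 2 rose and 5 fell with A1 + OVA (87.5% called). Among those that fell was Daam2, a formin that binds Dishevelled, with -1.69 and -1.15 (adjusted p = 8.47e-14 and 1.19e-11). Of the 44 untested genes of the list, 28 had at most 3 counts in every sample and 12 had 0 in every sample.

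**Figure D5:**
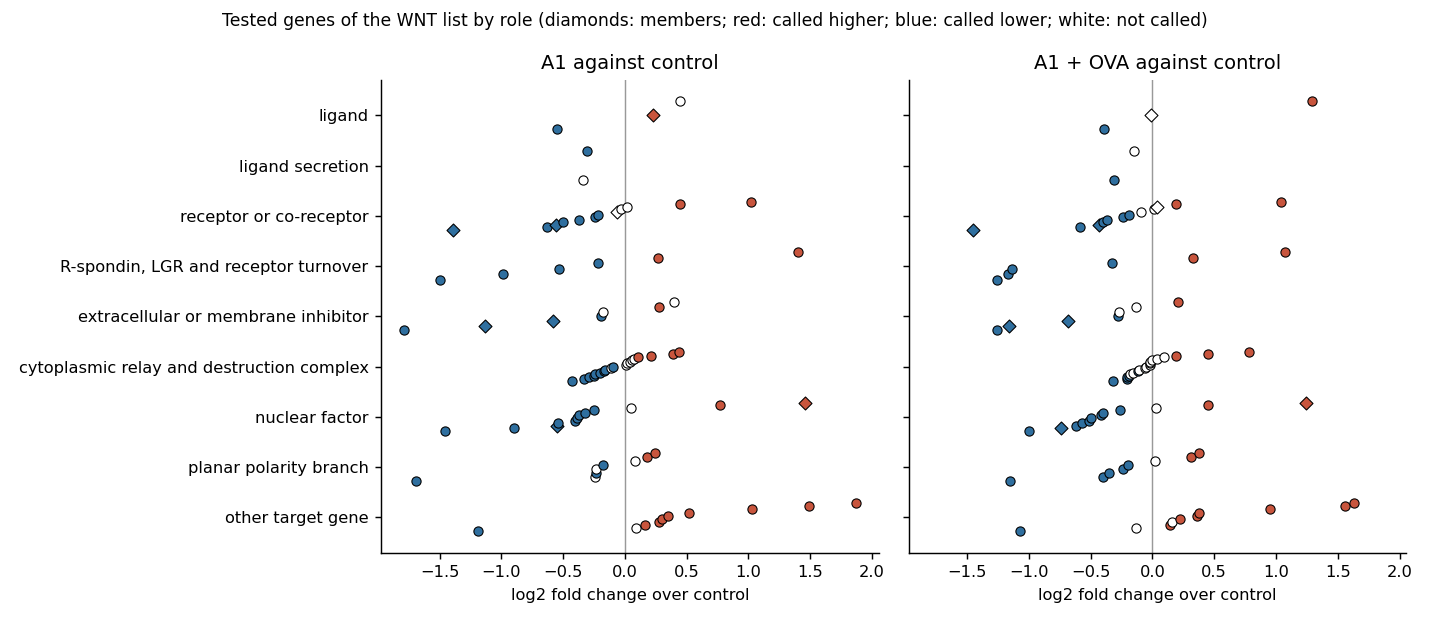
Log2 fold change over control (x axis) of the 79 tested genes of the WNT list by role (y axis), with A1 on the left and A1 + OVA on the right; diamonds are members, red was called higher, blue lower and white not called. Nuclear factors lie mostly left of 0, and other target genes mostly right of it.

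Fewer WNT genes were called between both treated groups than against control, as over all tested genes. Beside Wnt5a, 12 of the 71 other tested genes were called (16.9%, against 12.9% of all tested genes), 4 higher and 8 lower. Of the 15 tested genes of the target list, 5 were called (33.3%), 1 higher and 4 lower. Frzb and Daam2 were higher with A1 + OVA than with A1 (log2 fold change 0.53 for each, adjusted p = 2.43e-05 and 0.000541), as were Nkd2 (0.33, adjusted p = 0.0154) and, named after its values were seen, Amer1 (0.24, adjusted p = 0.0235). Rspo2 (-0.27, adjusted p = 0.000518), Lgr6 (-0.33, adjusted p = 0.000501), Tle1 (-0.32, adjusted p = 0.000301), Fosl1 (-0.24, adjusted p = 0.000659) and Ccnd1 (-0.15, adjusted p = 0.00715) were lower. Tle3 had -0.20 (adjusted p = 0.0233), which was lost without A1 replicate 1 (0.0577) or 2 (0.0602) or A1 + OVA replicate 2 (0.0813). The other members had direct differences of -0.23 for Lef1 (95% interval -0.50 to 0.04, adjusted p = 0.273), -0.19 for Tcf7l2 (95% interval -0.37 to -0.01, adjusted p = 0.158), 0.13 for Fzd2 (adjusted p = 0.150), 0.10 for Fzd7 (adjusted p = 0.128), -0.06 for Fzd1 (95% interval -0.17 to 0.04, adjusted p = 0.416) and -0.03 for Sfrp1 (95% interval -0.15 to 0.09, adjusted p = 0.781).

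The order of the members by level changed with treatment. Per kilobase of exon, the control order was Dkk3 (66.8 CPM), Sfrp1 (35.6), Fzd1 (27), Fzd7 (19.7), Fzd2 (11.8), Wnt5a (5.61), Tcf7l2 (5.13), Lef1 (0.322), Tcf7 (0.274) and Axin2 (0.00549). The ranges of Wnt5a and Tcf7l2 overlapped, as did those of Lef1 and Tcf7. With A1 the order began with Dkk3 (44.6), Fzd7 (18.9), Sfrp1 (16.3) and Fzd1 (10.3), where the ranges of Fzd7 and Sfrp1 overlapped. With A1 + OVA it began with Dkk3 (41.6), Fzd7 (20.2), Sfrp1 (16) and Fzd1 (9.87), with no overlap between these.

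The genes whose log2 CPM followed a member most closely over the 12 samples were Kitl and Lpar4 for Fzd1 (Pearson r = 0.997 and 0.996), Zhx1 and Lpar4 for Sfrp1 (0.994 for each), Gas1 and Bicc1 for Dkk3 (0.995 for each), Tmem33 and Ppat for Lef1 (0.990 and 0.989), Pcx and Hacd4 for Fzd2 (0.987 for each) and Magel2 and Osbpl3 for Tcf7l2 (0.976 and 0.974). Kitl encodes stem cell factor, a signal that stromal cells give to blood-forming cells. The closest to Wnt5a were Rai14 and Fbxo5 (0.936 and 0.934), and Fzd7, the member without a called change, had the weakest best matches, Slc45a4 and Slc35a1 (0.863 and 0.831). The 12 samples share 3 treatments, so that any genes with the same response correlate over them.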

How the data were processed

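The authors prepared poly(A)-selected libraries (a KAPA RNA HyperPrep kit per the labels, a stranded KAPA mRNA kit per the study's methods), sequenced them as paired ends, aligned the reads to GRCm38 and deposited raw counts per Ensembl gene without normalization or filter. The submitters' processing notes name bcl2fastq 2.20, STAR 2.7 and featureCounts 2.0. Symbols, biotypes, coordinates and exon lengths were taken from GENCODE M21, an earlier annotation of GRCm38, which holds 99.53% of the 55487 gene identifiers.

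From these counts, 11314 of 21974 protein-coding genes were kept by filterByExpr, their library sizes were scaled by TMM, and the quasi-likelihood test of edgeR 4.0.16 (R 4.3.3) was run in 1 fit of 12 samples with 3 groups and no other covariate. Calls needed an adjusted p under 0.05 after Benjamini-Hochberg adjustment. CPM are counts scaled to a common size of the TMM-normalised library of tested genes. Levels of different genes were compared per kilobase of exon (union of exons), except in the marker sums, which add CPM not divided by length. Log2 CPM for the correlations used a prior count of 2. DESeq2 (version 1.42.0), the study's tool, was an alternative, beside upper-quartile scaling, other filters, all genes, only the groups compared, a replicate block, a fold change threshold and each sample left out in turn. The code was tested on simulated data.

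The members, the WNT list and the target list were chosen with earlier results of these data known. Named are all 10 members, other genes of the WNT list called with a log2 fold change of 0.5 or more in size in any comparison, all tested ligands and receptors, and the 2 genes most correlated with each tested member. The list entries Wisp1 and Wisp2 were matched to Ccn4 and Ccn5, their symbols in the annotation. Protein sequences of the members were not analysed here. Counts of 3 were taken as the floor, which covers counting error only. Within each group, the counts of 2 samples varied 1.92 to 6.83 times as much as counting error gives, so that none was a copy of another. The treatment protocol in the labels also mentions insulin for the A1 + OVA medium, in wording that does not show whether it was added.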

Additional observations from a re-analysis of the deposited data

Results flagged for a closer look

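In groups of 4 samples, 5 of 114 values (38 named genes in 3 groups) lay further from the other 3 than Dixon's 95% critical value allows, as a share of the group's range, and chance alone marks about 1 in 20 groups. Fzd1 was highest in control replicate 1, at 120 CPM against 110 to 111 in the other control samples. Tcf7 was highest in control replicate 2, at 2.13 CPM (36 counts) against 0.186 to 0.376, the library that also held the T cell lineage counts. Lgr6 was lowest in control replicate 1, at 28.2 CPM against 32.9 to 33.0. Fzd5 was lowest in A1 replicate 2, at 31.2 CPM against 35.9 to 36.4, and Myc was highest in A1 + OVA replicate 3, at 137 CPM against 127 in the other 3. Except for Tcf7, which was not tested, leaving out any of these samples changed no call of the gene concerned in a comparison with control.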

How the results depend on the processing

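The number of members called was 7 with A1 and 6 with A1 + OVA under the other tools, scalings, filters and fits and in every fit that left out a sample, except 7 with A1 + OVA without the filter, which added Tcf7, and 6 and 5 where a log2 fold change of 0.5 or more in size was also required. That threshold also left, of the WNT list, 8 genes higher and 17 lower with A1, 8 higher and 15 lower with A1 + OVA, and 2 higher and 0 lower between both treatments. It left 5 target genes higher with each treatment, 0 higher and 0 lower between both treatments, and 0 members between both treatments, where Wnt5a lies under it. Without single samples the target genes called lower with A1 numbered 1 to 2, the lowest without A1 replicate 1, which lost Lgr5. Without A1 replicate 2 and control replicate 2 together, chosen after seeing the data, 2 members were called between both treatments, Dkk3 being added (log2 fold change -0.12, adjusted p = 0.0378; range over the samples left out singly 0.0525 to 0.181). By Spearman's rho, 4 of 16 closest genes were the same. Of 504 values of single members under an alternative, 500 kept their direction and their side of the threshold, 3 lost the call at the fold change threshold and 1 gained it. Of the values of other named genes, 1737 kept both, 69 lost and 11 gained the call, and 0 called values of any gene changed sign. The replicate numbers did not pair the samples: deviations from the group means correlated at -0.132 to 0.156 between samples of the same number (mean 0.0215, 12 pairs) and at a mean of -0.00704 between different numbers, and in 6 of 24 combinations of a sample and another group the best correlation was at the same number. With the replicate block, 7, 6 and 1 members were called in the 3 comparisons, as without it, and 21 higher and 40 lower of the WNT list with A1. Low counts limit the statements on Axin2, Tcf7, Wnt9a and Fzd6.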

Other observations

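Other genes of the marker lists are given as mean CPM in control, with A1 and with A1 + OVA, in that order and with no test. Lpl, which encodes lipoprotein lipase, was at 1840, 584 and 688 CPM, and Pdgfra, a receptor that marks stromal progenitors, at 247, 125 and 111 CPM. The related receptor gene Pdgfrb of the same list was at 389, 387 and 354 CPM. Among osteoblast markers, Spp1, which encodes osteopontin, was at 1148, 3191 and 2205 CPM, whereas Runx2, the early osteoblast regulator, was at 125, 97.8 and 82.6 CPM and Alpl, alkaline phosphatase, at 15.3, 9.12 and 9.49 CPM. Sp7, Bglap and Ibsp, which mark committed osteoblasts, had at most 2 counts in any sample, and the adipocyte regulator Pparg was at 125, 124 and 117 CPM.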
